A study of Mus musculus with 12 samples.

Results

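Cr2, Cd1d1, Cd9, Cd36, S1pr3 and Mzb1 are 6 genes whose products mark marginal zone (MZ) B cells, and they were taken by symbol from the 37991 genes of the count table. All 6 were found, and all 6 passed the filter on low counts that left 13538 genes for testing. The samples are RNA of resting B cells from the spleens of mice at an age of 8 weeks, with 3 biological replicates in each of 4 groups and 12 samples in all. The knockout mice, named Runx1 c-k/o, carried the CD23-iCre transgene and floxed Runx1 alleles from which exon 4 is removed, and the controls (Cre-only) carried the same CD23-iCre transgene. Cells of both genotypes were taken before activation (0 h, here called rest) and after 3 h with anti-IgM, which engages the B cell receptor (BCR), and IL-4. The Cre is driven by the CD23 promoter and first acts at the transitional stage, and the controls carry it too. The cells were isolated by negative selection that also removes CD43+ cells, and MZ cells were not separated from follicular (FO) cells.

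MZ B cells lie at the border of the white and red pulp of the spleen and respond early to antigens carried by the blood. Their formation depends on NOTCH2 signaling, and compared with FO cells they carry more CD21 and CD1d on the surface and less CD23. In RNA from a mixed B cell population, a change in the share of MZ cells cannot be told apart from a change in RNA per cell. This holds for higher and for lower levels of a marker gene, and for both genotype and activation differences. Of the markers of the labelled cell type, all 7 B cell genes (among them Cd79a and Ms4a1) were detected in every group, with a summed level of 9192 to 9944 normalized CPM at rest.

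The counts per sample summed to 14442251 at the lowest and 23641552 at the highest. Levels are given as normalized CPM, counts scaled to a library size corrected by the TMM method of edgeR. They are relative to the other transcripts of a sample. The spike-in RNA that the paper describes was not used here, so that changes in RNA content per cell were not measured. At these totals, 3 counts correspond to 0.127 to 0.208 CPM as a floor, which covers only counting error. The counts of Runx1 cover all of its exons and do not check the deletion of exon 4.

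Cr2 (ENSMUSG00000026616) encodes the complement receptors CD21 and CD35 and is found on chromosome 1 (mm9, minus strand) from 196963005 to 197002909. Cd1d1 (ENSMUSG00000028076), which encodes a molecule that presents lipids to NKT cells, lies on the minus strand of chromosome 3 from 86799756 to 86803363. Cd9 (ENSMUSG00000030342) encodes a tetraspanin and lies on the minus strand of chromosome 6 from 125410284 to 125444809, where 30 of its exonic bases are shared with the lincRNA Gm16749 on the other strand. Cd36 (ENSMUSG00000002944), a scavenger receptor gene, is on the minus strand of chromosome 5 from 17287508 to 17394777. S1pr3 (ENSMUSG00000067586), a receptor gene for sphingosine 1-phosphate (S1P), is on the plus strand of chromosome 13 from 51503987 to 51518166. Mzb1 (ENSMUSG00000024353, named 2010001M09Rik in the annotation of this build) encodes a cofactor of the endoplasmic reticulum (ER) chaperone GRP94 and lies on the minus strand of chromosome 18 from 35806920 to 35809021. The values are for whole genes, all exons together.

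In resting Cre-only cells the 6 genes differed widely in level. Per kb of exonic length, Mzb1 was at 146 ± 4.20 normalized CPM (SD, n = 3) and Cr2 at 129 ± 17.5 (SD, n = 3), with the lowest Mzb1 sample at 141 and the highest Cr2 sample at 147. These 2 levels overlapped between samples. Cd1d1 followed at 26.7 ± 1.92 and Cd36 at 26.4 ± 1.11 (SD, n = 3 each), which also did not differ beyond their spread. Cd9 was at 10.4 ± 0.432 and S1pr3 at 5.07 ± 0.755 (SD, n = 3 each). These were below the others in every sample.

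The promoters of Cr2, Cd9, S1pr3 and Cd36 are shown. Of these genes the first 3 rose on activation and the last one fell. Each window holds 250 bases before and 50 bases after the start site on the strand of the gene (RefSeq, GRCm38.p6). Cd1d1 had no entry among the promoter sequences used, and the window of Mzb1 was not searched. Both of these genes also fell on activation. The windows are chr1:195176670-195176969 (minus strand) for Cr2, chr6:125494711-125495010 (minus strand) for Cd9, chr13:51408368-51408667 (plus strand) for S1pr3 and chr5:17835847-17836146 (minus strand) for Cd36. Capitals mark the letters TGGGAA, a core of sites of RBPJ, the DNA-binding partner of the NOTCH proteins.
Cr2: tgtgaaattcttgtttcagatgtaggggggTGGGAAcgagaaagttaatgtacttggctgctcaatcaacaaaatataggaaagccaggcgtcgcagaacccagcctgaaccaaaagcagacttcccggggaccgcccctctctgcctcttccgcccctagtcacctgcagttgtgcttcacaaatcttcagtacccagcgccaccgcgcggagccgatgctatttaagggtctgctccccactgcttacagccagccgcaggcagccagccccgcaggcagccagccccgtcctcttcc
Cd9: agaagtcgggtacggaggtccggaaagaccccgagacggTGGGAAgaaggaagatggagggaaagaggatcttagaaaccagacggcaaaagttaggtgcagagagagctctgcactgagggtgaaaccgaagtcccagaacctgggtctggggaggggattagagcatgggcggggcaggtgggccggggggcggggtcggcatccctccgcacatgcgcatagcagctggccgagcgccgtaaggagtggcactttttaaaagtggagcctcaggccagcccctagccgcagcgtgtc
S1pr3: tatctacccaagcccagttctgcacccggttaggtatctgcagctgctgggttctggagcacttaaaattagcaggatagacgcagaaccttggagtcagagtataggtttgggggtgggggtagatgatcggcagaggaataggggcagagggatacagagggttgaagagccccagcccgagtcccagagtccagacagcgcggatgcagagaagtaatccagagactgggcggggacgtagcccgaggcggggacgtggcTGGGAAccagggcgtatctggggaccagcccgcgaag
Cd36: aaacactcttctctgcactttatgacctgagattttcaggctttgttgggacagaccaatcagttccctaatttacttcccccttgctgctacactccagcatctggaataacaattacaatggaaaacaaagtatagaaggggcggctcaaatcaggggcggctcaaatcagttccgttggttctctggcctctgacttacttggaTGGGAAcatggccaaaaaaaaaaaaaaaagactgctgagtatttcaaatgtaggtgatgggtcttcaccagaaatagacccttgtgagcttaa
The letters TGGGAA or their reverse complement were found 1 time in each of the 4 windows, and in 25.6% of 32851 RefSeq promoter windows of this length. The first base of the match lay at -220 in Cr2, -211 in Cd9, -43 in Cd36 and 14 in S1pr3, counted from the start site. The RUNX core letters TGTGGT and TGCGGT, searched on both strands, were in 0 of the 4 windows and in 22.4% of all windows. A match is a description of the sequence and was not tested as a binding site, and the absence of a match says only that these letters are not in this window.

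Activation with anti-IgM and IL-4 moved all 6 genes within 3 h, and it divided them into 3 that rose and 3 that fell. Cr2, Cd9 and S1pr3 were higher after 3 h in both genotypes, and Cd1d1, Cd36 and Mzb1 were lower. In the quasi-likelihood test of edgeR, with p-values adjusted over all tested genes after Benjamini and Hochberg, all 6 passed an adjusted p of 0.05 in Cre-only cells and all 6 in knockout cells. Of all 13538 tested genes, 75% passed in Cre-only cells (38.6% higher and 36.4% lower) and 74.3% in knockout cells (37.7% higher and 36.6% lower), so that a change on activation was the rule among all genes. The median log2 fold change of the 6 genes was -0.11 in Cre-only and 0.12 in knockout cells, beside 0.03 and 0.00 for all tested genes. In each of these 12 changes the 3 resting samples and the 3 activated samples did not overlap. For all tested genes this share was not computed, so that whether the count is particular to the 6 genes is not known.

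**Figure D1:**
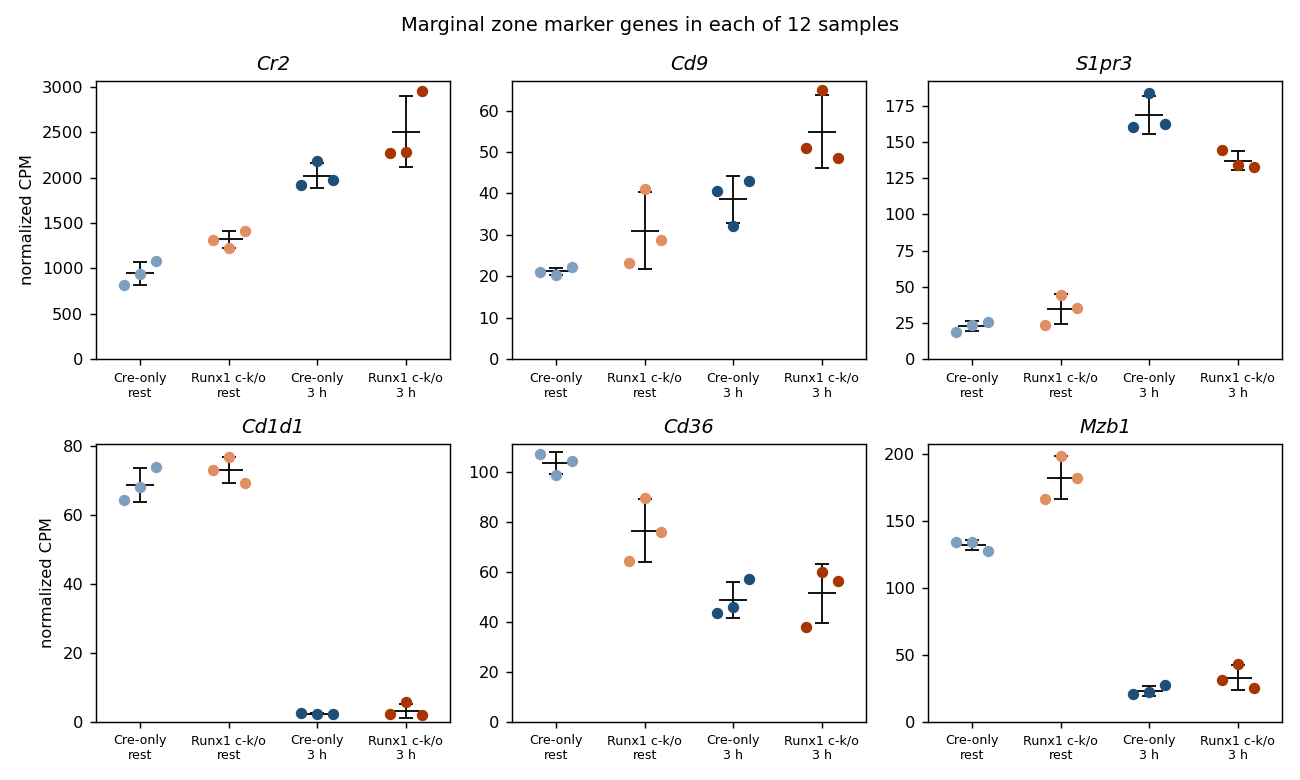
Normalized CPM (vertical axis, linear, from 0) of the 6 genes in each of the 12 samples, with the replicates of a group from left to right, a horizontal line at the mean and bars of 1 SD. Cr2, Cd9 and S1pr3 in the upper row were higher after 3 h, and Cd1d1, Cd36 and Mzb1 in the lower row were lower.

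S1pr3 had the largest rise of the 6. It was at 19.0, 23.6 and 25.6 normalized CPM in resting Cre-only replicates 1, 2 and 3 and at 161, 184 and 162 after 3 h. In knockout cells it was at 23.4, 44.3 and 35.6 at rest and at 145, 134 and 133 after 3 h. After 3 h all 3 knockout samples were below the 3 Cre-only samples, a difference that did not pass the test between genotypes (edgeR adjusted p = 0.410), and at rest 2 of the 3 knockout samples were above every Cre-only sample. The rise was 7.44-fold in Cre-only cells (log2 fold change 2.90, standard error 0.195, edgeR adjusted p = 7.83e-08) and 3.99-fold in knockout cells (log2 fold change 1.99, standard error 0.188, edgeR adjusted p = 1.26e-06).

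Cr2 had the highest counts of the 6 genes, and its product CD21 lowers the threshold of the BCR when complement is bound to antigen. In resting cells it was at 818, 941 and 1075 normalized CPM in Cre-only and at 1317, 1225 and 1411 in knockout samples. Activated cells had 1913, 2181 and 1970.3 in Cre-only and 2271, 2284 and 2956 in knockout samples. At both times the lowest knockout sample lay above the highest Cre-only sample. The rise on activation was 2.14-fold in Cre-only cells (log2 fold change 1.10, standard error 0.138, edgeR adjusted p = 1.35e-05) and 1.90-fold in knockout cells (log2 fold change 0.93, standard error 0.138, edgeR adjusted p = 5.85e-05).

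Cd9, whose product organizes other membrane proteins into tetraspanin domains, was at 21.0, 20.4 and 22.1 normalized CPM in resting Cre-only samples and at 40.7, 32.0 and 42.9 after 3 h. In knockout samples it was at 23.1, 41.2 and 28.7 at rest and at 51.0, 64.9 and 48.6 after 3 h. At both times all knockout samples exceeded all Cre-only samples, and replicate 2 was the highest of its group at both. The rise was 1.82-fold in Cre-only cells (log2 fold change 0.86, standard error 0.192, edgeR adjusted p = 0.00134) and 1.77-fold in knockout cells (log2 fold change 0.82, standard error 0.190, edgeR adjusted p = 0.00178). With 1 RUVs factor of unwanted variation in the edgeR fit the log2 fold changes were 0.77 (standard error 0.351) in Cre-only and 0.73 (standard error 0.337) in knockout cells, and neither passed (edgeR adjusted p = 0.0810 and 0.0852).

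Cd1d1 had the largest change of the 6 in either direction. Its counts in replicates 1, 2 and 3 fell from 1331, 1195 and 1193 in resting Cre-only cells to 56, 35 and 36 after 3 h, and from 1246, 1188 and 1044 in resting knockout cells to 34, 85 and 33. In normalized CPM, resting Cre-only samples had 64.1, 68.0 and 73.9 and resting knockout samples 73.0, 76.8 and 69.3, and after 3 h Cre-only samples had 2.42, 2.29 and 2.29 and knockout samples 2.19, 5.58 and 1.94. The 2 genotypes overlapped at both times, and 1 sample, replicate 2 of the 3-h knockout cells, stood above the other 5 activated samples. The level was 29.3-fold lower after 3 h in Cre-only cells (log2 fold change -4.87, standard error 0.282, edgeR adjusted p = 3.03e-08) and 22.7-fold lower in knockout cells (log2 fold change -4.51, standard error 0.275, edgeR adjusted p = 5.40e-08). Cd1d2, a near copy of Cd1d1 on the same chromosome from 86790508 to 86793455, had between 5 and 13 counts in the resting samples and 0 in the activated ones, at floors of 3 counts per sample. Of the 1945 windows of 50 bases in the coding transcripts of Cd1d1, 26.6% also occur in those of Cd1d2, so that part of the reads could come from either gene.

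Mzb1, whose product helps IgM to assemble in the ER, was at 134, 134 and 128 normalized CPM in resting Cre-only samples and at 20.5, 21.9 and 27.6 after 3 h. In knockout samples it was at 167, 199 and 182 at rest and at 31.0, 43.0 and 25.1 after 3 h. The resting knockout samples all lay above the resting Cre-only samples, and after 3 h the 2 genotypes overlapped. Mzb1 fell 5.68-fold in Cre-only cells (log2 fold change -2.51, standard error 0.176, edgeR adjusted p = 1.06e-07) and 5.54-fold in knockout cells (log2 fold change -2.47, standard error 0.175, edgeR adjusted p = 1.40e-07).

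Cd36, whose product binds oxidized lipoproteins and takes up fatty acids, was at 107, 98.8 and 105 normalized CPM in resting Cre-only samples and at 43.8, 45.9 and 57.2 after 3 h. In knockout samples it was at 64.2, 89.5 and 76.1 at rest and at 38.1, 59.9 and 56.3 after 3 h. It was the 1 member that was lower in all resting knockout samples than in all resting Cre-only samples, and after 3 h the genotypes overlapped. The fall was 2.12-fold in Cre-only cells (log2 fold change -1.08, standard error 0.170, edgeR adjusted p = 8.87e-05) and 1.49-fold in knockout cells (log2 fold change -0.57, standard error 0.169, edgeR adjusted p = 0.00848). With 1 RUVs factor the second call was lost, with a log2 fold change of -0.28 and an adjusted p of 0.414 in edgeR and of -0.33 and 0.250 in DESeq2.

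The next comparison was between knockout and Cre-only cells at rest, which asks whether loss of RUNX1 alters the marker genes before activation. None of the 6 genes passed an adjusted p of 0.05 in the edgeR test, beside 1.49% of all tested genes (0.731% higher and 0.761% lower in knockout cells). At an unadjusted p under 0.05 there were 5 of the 6, all but Cd1d1, and 11.1% of all tested genes. By DESeq2's Wald test 1 of the 6 passed, Cr2, and this test called 378 of all genes, against 202 in edgeR. The 3 samples of one genotype lay apart from the 3 of the other in 4 of the 6, which were Cr2, Cd9 and Mzb1 (higher in knockout cells) and Cd36 (lower), and in 23.7% of all tested genes. The median log2 fold change of the 6 genes was 0.47, beside 0.03 for all tested genes.

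At rest the log2 fold change of Cr2 between knockout and Cre-only cells was 0.48 (1.39-fold, 95% interval 0.18 to 0.78, edgeR adjusted p = 0.147). Its adjusted p was 0.0171 by DESeq2's Wald test, and with 1 RUVs factor it was 0.0212 in edgeR and 0.000377 in DESeq2. S1pr3 was at a log2 fold change of 0.60 (95% interval 0.19 to 1.01, edgeR adjusted p = 0.207), and without replicate 1 of the resting knockout cells, the lowest of its group, it was at 0.82 (edgeR adjusted p = 0.0227). Without replicate 2, the highest of its group, it was at 0.37 (edgeR adjusted p = 0.587). The genotypes overlapped in this gene, since replicate 1 of the knockout cells lay within the range of the Cre-only samples. Mzb1 was at 0.47 (95% interval 0.11 to 0.82, edgeR adjusted p = 0.273), and with only the 6 resting samples in the fit it was at 0.44 (edgeR adjusted p = 0.0300). Cd9 was at 0.55 (95% interval 0.13 to 0.97, edgeR adjusted p = 0.273), and without replicate 2 of the resting knockout cells the value was 0.29. Cd36 was at -0.44 (95% interval -0.80 to -0.07, edgeR adjusted p = 0.332). For Cd1d1 the log2 fold change was 0.09 (edgeR adjusted p = 0.889), and its 95% interval of -0.39 to 0.56 leaves room for a change in either direction.

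**Figure D2:**
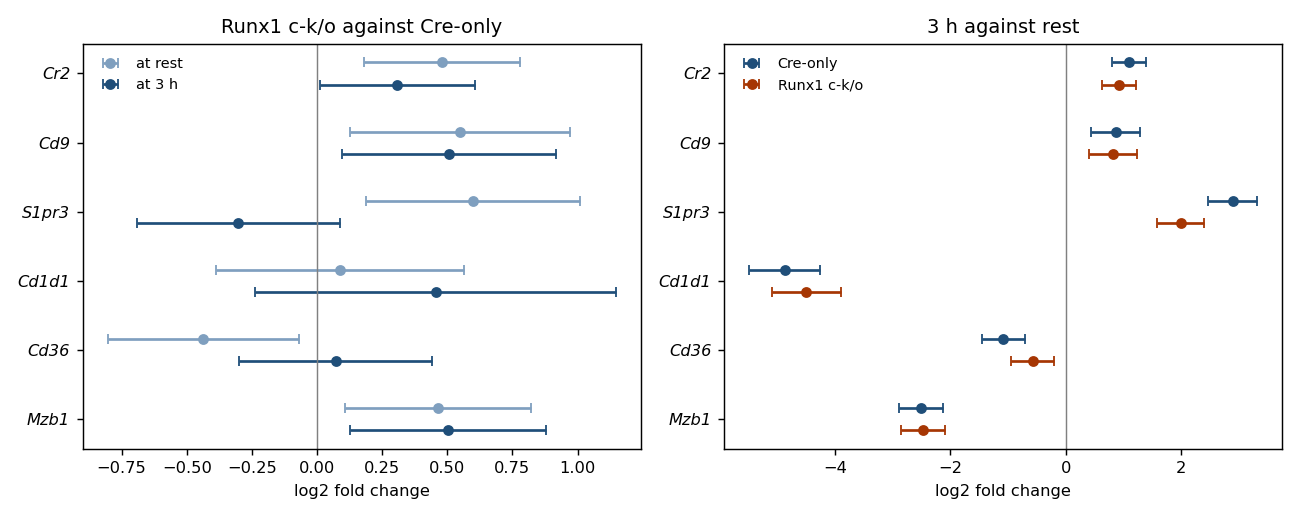
Log2 fold changes of the 6 genes from the edgeR fit with bars for the 95% interval, between genotypes at rest and at 3 h in the left panel and between 3 h and rest in each genotype in the right panel (the horizontal scales differ). The genotype differences lay between -0.44 and 0.60, and the activation changes reached 2.90 for S1pr3 and -4.87 for Cd1d1.

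Transcripts of macrophages were present in these B cell samples and varied between them. The summed level of a list of 10 macrophage genes, among them Csf1r, Emr1 and Vcam1, was 711, 629 and 822 normalized CPM in replicates 1, 2 and 3 of Cre-only cells at rest and 554, 1217 and 909 in those of knockout cells at rest. None of the 10 genes was at 0 in any group and 0 of 10 passed the edgeR test between genotypes at either time (at an unadjusted p under 0.05, 0 at rest and 3 at 3 h). Within the 3 resting knockout samples, Cd9, S1pr3, Cd36 and Mzb1 were lowest in replicate 1 and highest in replicate 2. This was the order of the macrophage sum in those samples, and Cr2 and Cd1d1 were not in that order. Within the 3 resting Cre-only samples, only Cd9 was in the order of their macrophage sum. S1pr3, Cd36, Mzb1, Cr2 and Cd1d1 were not in that order there. The part of macrophage transcripts in the differences between genotypes was not tested.

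**Figure D3:**
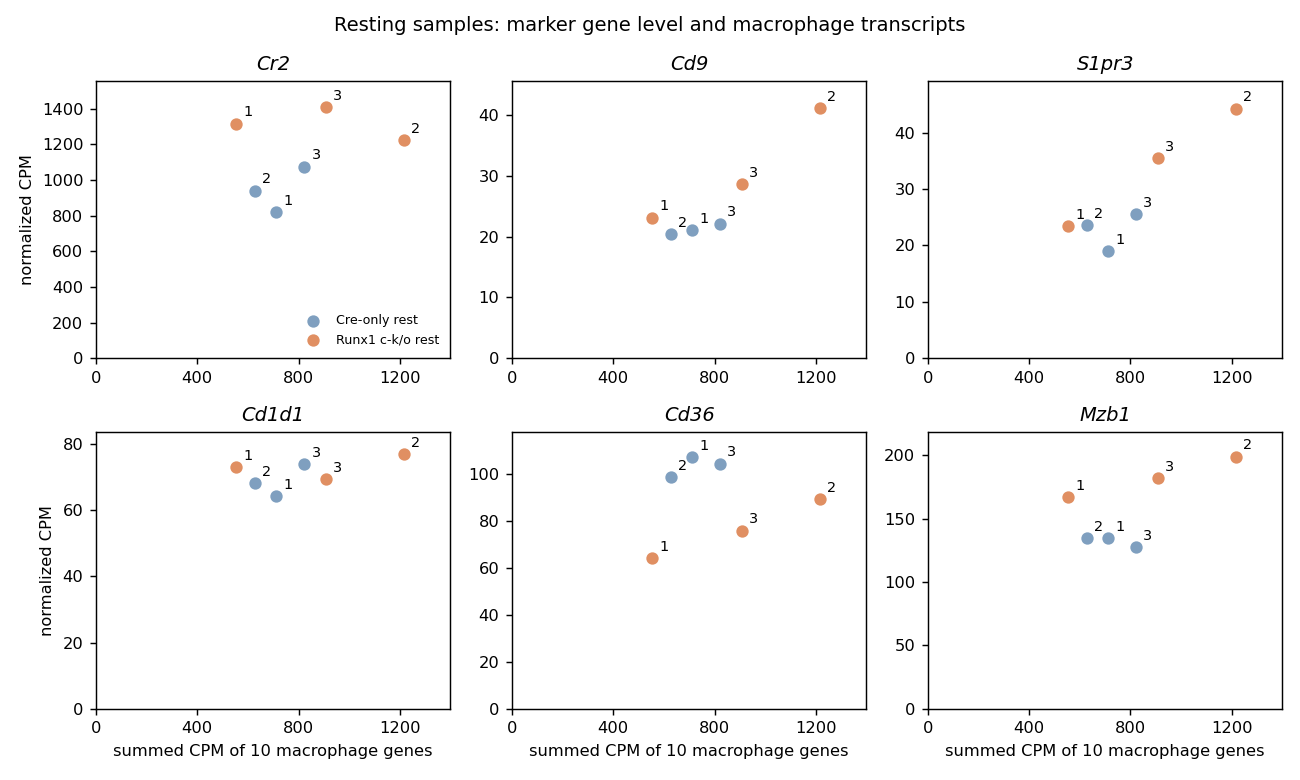
Normalized CPM of each of the 6 genes (vertical axis, from 0) against the summed normalized CPM of 10 macrophage genes (horizontal axis) in the 6 resting samples, with replicate numbers beside the points. Replicate 2 of the knockout cells had the highest macrophage sum, 1217, and also the highest Cd9, S1pr3, Cd1d1 and Mzb1 of the resting samples.

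The summed levels of 5 erythroid genes were 36.3 to 254 normalized CPM in resting Cre-only and 246 to 410.2 in resting knockout samples. At rest they reached at most 33.2 for 6 dendritic cell genes, 24.8 for 6 endothelial and stromal genes, 15.0 for 6 platelet genes, 6.22 for 5 neutrophil genes and 6.02 for 6 T cell genes. Sdc1, a plasma cell gene, was lower in resting knockout cells (7.04 ± 1.69 normalized CPM, SD, n = 3) than in resting Cre-only cells (17.9 ± 0.778, SD, n = 3), with a log2 fold change of -1.35 (edgeR adjusted p = 0.00157). The other 4 tested genes of the plasma cell list did not pass at rest, and the sum of the list was 1565 to 1674 in Cre-only and 1541 to 1679 normalized CPM in knockout samples at rest. Of 5 genes of B-1 cells, with a sum of 120 to 162 normalized CPM in the resting samples, 0 passed at rest and 1 at 3 h, Spn, which encodes CD43, at 13.6 ± 0.194 normalized CPM in knockout and 8.09 ± 1.67 in Cre-only cells (SD, n = 3 each, edgeR adjusted p = 0.0201). Of the 4 tested genes of transitional B cells 0 passed at either time, and the sum of that list was 749.6 to 926 normalized CPM in the resting samples.

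After 3 h of activation, again none of the 6 genes passed an adjusted p of 0.05 between the genotypes in the edgeR test, and none did by DESeq2's Wald test, which called 709 of all genes against 375 in edgeR. The share of all tested genes that passed in edgeR was 2.77% (1.47% higher and 1.3% lower in knockout cells). At an unadjusted p under 0.05 there were 3 of the 6, Cr2, Cd9 and Mzb1, all higher in knockout samples, and 16.2% of all tested genes. Samples of the 2 genotypes did not overlap in 3 of the 6, Cr2 and Cd9 (higher in knockout cells) and S1pr3 (lower), and in 21.8% of all tested genes. The median log2 fold change of the 6 was 0.38, beside 0.01 for all tested genes.

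Cr2 had a log2 fold change of 0.31 at 3 h (95% interval 0.01 to 0.61, edgeR adjusted p = 0.293) and Cd9 of 0.51 (95% interval 0.10 to 0.92, edgeR adjusted p = 0.211). Without replicate 3 of the 3-h knockout cells, its highest sample, Cr2 was at 0.17. Mzb1 was at 0.50 (95% interval 0.13 to 0.88, edgeR adjusted p = 0.173), at 0.67 without replicate 3 of the 3-h knockout cells (edgeR adjusted p = 0.0387) and at 0.27 without replicate 2. For S1pr3 the value was -0.30 (95% interval -0.69 to 0.09, edgeR adjusted p = 0.410) and for Cd36 it was 0.07 (95% interval -0.30 to 0.44, edgeR adjusted p = 0.844). Cd1d1 was at 0.46 (95% interval -0.24 to 1.15, edgeR adjusted p = 0.472), and without replicate 2 of the 3-h knockout cells the sign turned to -0.18. In that replicate the macrophage sum was 130 normalized CPM, against 47.7 and 45.9 in the other knockout samples and 34.9 to 48.7 in the Cre-only samples at 3 h. The same replicate had the highest Cd1d1, Cd9, Cd36 and Mzb1 of the 3-h knockout samples. The part of the macrophage transcripts in these values was not tested.

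The change in the genotype difference between rest and 3 h was tested as an interaction. None of the 6 genes passed an adjusted p of 0.05 in edgeR or by DESeq2's Wald test, beside 0.0813% of all tested genes in edgeR, and 1 of the 6, S1pr3, had an unadjusted p under 0.05, as did 5.07% of all tested genes. DESeq2 called 83 of all genes. S1pr3 had an interaction of -0.90 on the log2 scale (95% interval -1.47 to -0.33, edgeR adjusted p = 0.509), which is the difference between its smaller rise in knockout and its larger rise in Cre-only cells. With 1 RUVs factor in DESeq2 it was -0.85 (adjusted p = 0.00958). For Cd36 the interaction was 0.51 (95% interval -0.01 to 1.03, edgeR adjusted p = 0.978), as its resting level was lower in knockout cells and its 3-h level overlapped. The interactions of the other 4 lay between -0.17 and 0.37.

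S1P receptors guide B cells within the spleen, and in MZ cells S1PR1 and S1PR3 act against the pull of the follicle. S1pr1 moved in the opposite direction to S1pr3. It was at 456, 492 and 448 normalized CPM in resting Cre-only and at 575, 526 and 562 in resting knockout samples, and at 114, 104 and 103 in 3-h Cre-only and 128, 170.02 and 132 in 3-h knockout samples. Its level was 4.34-fold lower after 3 h in Cre-only cells (edgeR adjusted p = 2.26e-08) and 3.86-fold lower in knockout cells (edgeR adjusted p = 4.69e-08). S1pr4, at 28.8 ± 2.01 normalized CPM in resting Cre-only samples, fell to 7.89 ± 1.64 (SD, n = 3 each). S1pr2 was at 4.44 normalized CPM or less in every sample and S1pr5 had at most 6 counts in any sample. Among the 10 tested genes of the S1P list other than S1pr3, 0 passed between genotypes at rest and 0 at 3 h in edgeR. On activation 2 were higher and 6 lower in Cre-only cells, and 3 were higher and 6 lower in knockout cells.

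**Figure D4:**
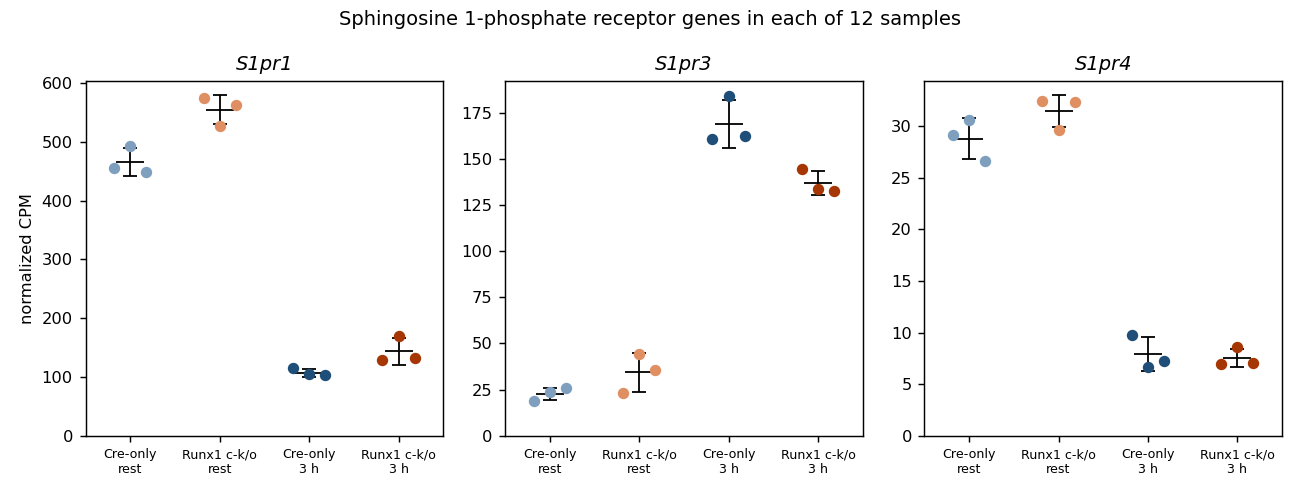
Normalized CPM (vertical axis, linear, from 0, with its own scale in each panel) of the S1P receptor genes S1pr1, S1pr3 and S1pr4 in each of the 12 samples, with a horizontal line at the mean and bars of 1 SD. S1pr1 and S1pr4 were lower after 3 h in both genotypes and S1pr3 was higher.

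CD81, a tetraspanin, belongs to the co-receptor that CD21 forms on B cells. Its gene Cd81 was higher in knockout than in Cre-only cells at 3 h, with 84.8, 83.5 and 63.6 normalized CPM against 46.4, 44.0 and 48.3 (log2 fold change 0.74, standard error 0.124, edgeR adjusted p = 0.00653). At rest its log2 fold change was 0.39 (edgeR adjusted p = 0.197). Cr1l, a complement regulator gene related to Cr2, differed by 0.09 at rest and by -0.04 at 3 h (edgeR adjusted p = 0.675 and 0.772). While Cr2 rose on activation, Cd81 was 2.67-fold lower after 3 h in Cre-only and 2.09-fold lower in knockout cells. Of the 7 other genes of the co-receptor list, 1 was higher and 4 were lower on activation in Cre-only cells and 1 and 6 in knockout cells. Between genotypes 0 of the 7 passed at rest and 1, Cd81, at 3 h. Among the 7 tested tetraspanin partner genes other than Cd9, which also hold Cd81, the counts between genotypes were the same.

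GRP94, the chaperone that MZB1 assists, is encoded by Hsp90b1. Its level rose while that of Mzb1 fell, from 437 ± 8.64 to 878 ± 56.6 normalized CPM in Cre-only cells and from 524 ± 64.6 to 1092 ± 152 in knockout cells (SD, n = 3 each). These were changes of 2.01-fold (edgeR adjusted p = 9.58e-06) and 2.08-fold (edgeR adjusted p = 6.61e-06). Among the 11 tested genes of ER folding other than Mzb1, 9 were higher and 1 was lower on activation in each genotype. Between genotypes at rest 1 of the 11 passed, the disulfide isomerase gene Pdia4, at 306 ± 23.7 in knockout and 229 ± 20.03 normalized CPM in Cre-only cells (SD, n = 3 each, log2 fold change 0.42, edgeR adjusted p = 0.0465). At 3 h 0 of the 11 passed.

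Of the 12 other genes of the MZ list, 1 passed between genotypes at rest and 0 at 3 h. The gene that passed was Cnr2, which encodes the cannabinoid receptor CB2, at 193, 196 and 186 normalized CPM in resting Cre-only and 340, 269 and 360.01 in resting knockout samples (log2 fold change 0.75, standard error 0.123, edgeR adjusted p = 0.00919). After activation Cnr2 was at 72.9 ± 10.2 in Cre-only and 70.0 ± 4.50 in knockout cells (SD, n = 3 each), and the log2 fold change was -0.06 (edgeR adjusted p = 0.820). Its interaction was -0.81 (edgeR adjusted p = 0.192). The median log2 fold change of the 12 genes was 0.12 at rest and 0.10 at 3 h. On activation 2 were higher and 9 lower in each genotype. Of 5 matched FO genes 0 passed between genotypes at either time. Among them Fcer2a, which encodes CD23, was at 1097 ± 31.6 in resting Cre-only and 997 ± 97.2 normalized CPM in resting knockout samples (SD, n = 3 each). Its log2 fold changes on activation were 0.02 in Cre-only and 0.03 in knockout cells (edgeR adjusted p = 0.846 and 0.784).

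In the NOTCH2 pathway, 0 of 18 genes passed between genotypes at rest and 1 at 3 h, Psen2, which encodes a catalytic subunit of the γ-secretase that cleaves NOTCH2. Psen2 was at 67.8, 55.4 and 54.6 normalized CPM in 3-h knockout and 41.2, 40.4 and 38.2 in 3-h Cre-only samples (log2 fold change 0.57, standard error 0.0945, edgeR adjusted p = 0.00612). Notch2 itself was 5.32-fold lower after 3 h in Cre-only cells and 4.49-fold lower in knockout cells, and between genotypes it differed by -0.17 at rest (edgeR adjusted p = 0.787) and 0.08 at 3 h (edgeR adjusted p = 0.885). Dtx1, a target of NOTCH2 that marks MZ cells, had a change of -0.0040 on activation in Cre-only and of -0.03 in knockout cells (log2 scale, edgeR adjusted p = 0.975 and 0.815). In the list for CD1d and lipid presentation 0 of the 6 tested genes other than Cd1d1 passed between genotypes at either time, and 1 was higher and 4 lower on activation in each genotype. For 11 genes of scavenger receptors and lipid uptake other than Cd36 the counts were 0 at rest and 0 at 3 h between genotypes, with 3 higher and 7 lower on activation in each genotype.

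Macrophage genes and B cell genes also fell on activation. The 10 macrophage genes all passed the edgeR test as lower after 3 h in both genotypes, and their sum went from 629 to 822 normalized CPM down to 34.9 to 48.7 in Cre-only cells. All 7 B cell genes were lower in both genotypes, with a median log2 fold change of -2.00. The median of the macrophage list was -4.35 in Cre-only and -3.43 in knockout cells, and for Cd1d1 the values were -4.87 and -4.51. The part of macrophage transcripts in the falls of Cd1d1, Cd36 and Mzb1 was not tested.

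The genes whose log2 level across the 12 samples was most like that of each member were found by Pearson's r, as a description over samples that share 2 time points and 2 genotypes. For Cr2 these were Sypl (r = 0.985), Tmem20 and Slamf7, for Cd1d1 AB124611 (r = 0.999), Bend5 and Pecam1, and for Cd9 Dhrs3 (r = 0.959), Thyn1 and Tor3a. For Cd36 they were Rap1gap2 (r = 0.948), 4930511M06Rik and St3gal2, for S1pr3 Zfp747 (r = 0.995), Fam46c and Zfp948, and for Mzb1 2310042D19Rik (r = 0.997), Snx20 and Zyx.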

How the data were processed

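RNA-seq of 12 samples was used, in 4 groups taken from the labels. The authors aligned paired reads of stranded poly(A)-selected libraries to mm9 with TopHat2 2.0.11 and Ensembl genes, counted them with featureCounts and deposited raw read counts per gene, without normalization. The strand setting of the counting is not given in the sources used here. Totals were 14442251 to 23641552 counts per sample.

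Symbols and positions came from the GENCODE annotation of the same build and promoter sequences from RefSeq. Tables were made with Python 3.11.15 and pandas 2.3.3, figures with matplotlib 3.10.9. Genes were kept by filterByExpr of edgeR 4.0.16 (R 4.3.3) with a minimum of 10 counts, and all 12 samples were fitted as 4 groups by its robust quasi-likelihood method after TMM normalization. Adjusted p-values are Benjamini-Hochberg values over 13538 genes, with a threshold of 0.05. The study's own analysis used DESeq2 with factors of unwanted variation. Both tools were run on simulated data in which 200 genes had changed. The outcome of that run is not given, and no result here rests on it.

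Alternatives were DESeq2's size factors, no filter, a minimum of 10 counts for all samples, Wald tests in DESeq2 1.42.0, 1 RUVs factor (computed here from replicate differences) in edgeR and DESeq2, a replicate block, a replicate block within each genotype, only the 2 groups compared, and each sample left out. The paper's text does not say how same-numbered samples relate. In Cre-only cells, the deviations from the group means of same-numbered resting and 3-h samples correlated across genes with 0.243, 0.155 and 0.125. This was read as a sign of pairs by number there. The values of Runx1 c-k/o cells were -0.207, -0.232 and 0.206. Those between genotypes lay between -0.055 and 0.037, so that no pairing by number was inferred for either. The main fit used no pairing in any group, and the numbers entered only the replicate blocks among the alternatives. Among knockout samples of unlike number the highest values were 0.418 (replicate 2 at rest with 1 at 3 h), 0.271 (3 with 2) and 0.221 (1 with 3), and no source says how these samples relate.

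The 6 members, the related gene lists and the tests were chosen with earlier results of these data known. All 6 members were named, and of each list up to 3 genes past an adjusted p of 0.05 between genotypes, direct partners of the members and the 3 genes nearest to each member by Pearson's r. For 1 of these partners the values are not reported here. Of 157 different symbols in the lists 156 matched a gene and 138 were tested.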

Additional observations from a re-analysis of the deposited data

How the results depend on the processing

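For the activation changes, every call of Cr2, S1pr3, Mzb1 and Cd1d1 was kept under all 15 alternatives. The fall of Cd36 in knockout cells and the rises of Cd9 in both genotypes were kept under 13 of 15, and lost with 1 RUVs factor in edgeR and in DESeq2. The log2 fold changes of Cd9 were then 0.77 and 0.64 in Cre-only and 0.73 and 0.65 in knockout cells, with standard errors of 0.304 to 0.351 in place of 0.192 and 0.190, and those of Cd36 were -0.28 and -0.33 in place of -0.57 (the cause was not tested).

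Between genotypes at rest, Cr2 passed with DESeq2's Wald test (0.48) and with 1 RUVs factor (0.51 in edgeR and 0.51 in DESeq2), S1pr3 with 1 RUVs factor in DESeq2 (0.53), and Mzb1 in the fit of the 6 resting samples (0.44). At 3 h, 1 RUVs factor in DESeq2 let Cr2 (0.38), Mzb1 (0.56) and Cd9 (0.53) pass, and it let the interaction of S1pr3 pass (-0.85). The members called at rest were thus 1 with DESeq2, 1 and 2 with 1 RUVs factor in edgeR and DESeq2, and 1 in the fit of 2 groups, at 3 h 3 with 1 RUVs factor in DESeq2, and 1 for the interaction. The causes were not tested.

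All genes called at rest numbered 202, and 378 with DESeq2, 524 and 607 with 1 RUVs factor in edgeR and DESeq2. At 3 h they numbered 375, and 709, 1036 and 1243 in the same order, and 158 in the fit of 2 groups. For the interaction they numbered 11, and 83, 142 and 255, and 4 with a replicate block within genotype. Neither block changed a call of any of the 6 genes, and with the replicate block within genotype the interaction of S1pr3 was -0.87.

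With each sample left out in turn, 81 to 140 genes passed at rest, 180 to 617 at 3 h and 4 to 31 for the interaction, and 0 to 1 of the 6 members at rest and at 3 h. The log2 fold change of S1pr3 at rest ran from 0.37 to 0.82 and that of Mzb1 at 3 h from 0.27 to 0.67, each passing without 1 sample named in the report. Signs turned for some values that passed in no fit. These were Cd1d1 at 3 h (-0.18 to 0.73), Cd36 at 3 h (-0.050 to 0.27), and the interactions of Mzb1 (-0.20 to 0.20), Cd1d1 (-0.27 to 0.64) and Cd9 (-0.22 to 0.22). The interaction of Cd9, at -0.04, was also positive with DESeq2's size factors (0.0072), at least 10 counts in every sample (0.026), DESeq2's Wald test (0.0075) and 1 RUVs factor in DESeq2 (0.013). The thinnest counts behind these results were those of Cd1d1 at 3 h, with 33 to 85 per sample.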
